A study of Drosophila melanogaster with 31 samples.

Results

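The genotype by GFP interaction at t1 asked whether the difference between atoGFP+ and atoGFP− cells of the Drosophila embryo was the same in ato mutant and in wild-type embryos. It was the difference of differences (wild-type GFP+ minus wild-type GFP−) minus (mutant GFP+ minus mutant GFP−), taken for every gene on the log2 scale at 5.75 to 6.75 h after egg laying. A positive value means a larger GFP+/GFP− ratio in wild type, and a negative value a larger ratio in the mutant. The comparison used 16 of the 31 arrays of the series, 4 in each of 4 groups: mutant GFP+, wild-type GFP+, mutant GFP− and wild-type GFP− cells. All embryos, mutant and wild type, were of the background that the labels spell w118 (the study's methods name a w1118 stock) and carried atoGFP.7, a single transgenic line in which an enhancer upstream of ato drives GFP. The mutant embryos also carried an ato mutant allele, given in the study's methods as ato1, a presumed null, and the labels do not say whether every mutant embryo was homozygous. The remaining arrays are wild-type GFP+ and GFP− cells at the later stages t2 and t3. They entered the fit to share its estimate of the spread. Each array was hybridised with RNA from sorted cells of pooled embryos, and fewer GFP+ cells were collected from mutant than from wild-type embryos.

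ato encodes the proneural bHLH transcription factor of the chordotonal organs, the internal stretch and hearing organs of insects. Proneural factors select single ectodermal cells as sense organ precursors, which then divide to give a ciliated neuron and its support cells. The same factor is used in the larval eye and in some sense organs of the head, so that the sorted GFP+ cells are a mixture. Because the reporter reads the ato enhancer and not the protein, GFP+ cells can be sorted from mutant embryos as well.

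A gene was called in limma when a probe set of its own changed 1.5-fold or more and its Benjamini-Hochberg adjusted p, the kind given throughout, did not exceed 0.01. In the 16 arrays the median log2 level lay between 4.71 and 4.77, and the arrays correlated with each other at 0.971 to 0.998 over all probe sets. No array date or sorting batch was given, so that genotype and any batch of collection, sorting or hybridisation cannot be told apart. No call of presence or absence was available either, and levels near the bottom of the scale, which began at 2.78, may be background. Replicates were independent samples in the study's methods, and p values measure the spread among replicates, pooled over all groups of the series. GFP+ and GFP− arrays were not paired in the fit, and some calls changed when they were, as given under the dependence on processing.

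The ato transcript itself was present in mutant GFP+ cells, at 11.94, 11.53, 11.57 and 11.12 in log2 level, against 12.41, 12.37, 12.28 and 12.20 in wild-type GFP+ cells. In GFP− cells it stood at 7.42, 7.30, 7.36 and 7.21 in the mutant and at 8.59, 8.81, 8.74 and 8.58 in wild type. Both pairs of groups were apart without overlap, lower in the mutant each time. The GFP+/GFP− ratio of ato was 18.6-fold in the mutant and 12.4-fold in wild type, and the interaction, −0.58 (SE 0.23), did not pass the call limits (adjusted p = 0.099). The labels do not describe the allele as one that removes the transcript, so these levels do not check the genotype, but they show that both sorts separated cells with high from cells with low ato RNA.

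Of 11982 genes, 588 had a called positive interaction, 4.91% of those tested, and 293 a called negative one, 2.45%. At an unadjusted p under 0.05 there were 1371 positive and 2015 negative genes, and the median interaction over all genes was −0.035. Within genotypes, 733 genes (6.12%) were enriched and 1006 (8.4%) depleted in GFP+ cells of the mutant, and 300 (2.5%) and 586 (4.89%) in those of wild type. Between genotypes, 352 genes (2.94%) were lower and 444 (3.71%) higher in mutant than in wild-type GFP+ cells, and 539 (4.5%) were lower and 762 (6.36%) higher in mutant than in wild-type GFP− cells. Most positive calls concerned genes with a lower level in GFP+ than in GFP− cells. In 370 of the 588 genes this depletion was called in the mutant only, and in a further 116 it was called in both genotypes. Only 30 were enriched in wild-type GFP+ cells alone, and 16 were enriched in GFP+ cells of both genotypes. Among the 293 negative calls, 145 genes were enriched in mutant GFP+ cells alone, 40 in GFP+ cells of both genotypes, and 33 were depleted from wild-type GFP+ cells alone.

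Each interaction is the genotype difference in GFP+ cells minus the genotype difference in GFP− cells. A gene was said to be carried by GFP+ means when the size of its genotype difference in GFP+ cells was at least 2 times that in GFP− cells, by GFP− means in the reverse case, and by both otherwise. By this description, which involves no test, 412 positive genes (70.1%) were carried by GFP− means and 91 (15.5%) by GFP+ means. In 75 genes (12.8%) both means moved, in opposite directions, and in 10 both moved in the same direction by unequal amounts. The negative genes were divided more evenly, with 121 (41.3%) carried by GFP− means, 93 (31.7%) by GFP+ means, 67 (22.9%) by both in opposite directions and 12 by both in the same direction. The order of the first 2 classes turned with cyclic loess scaling, with 50 carried by GFP− and 65 by GFP+ means, and at a limit of 2-fold, with 26 and 36. When each genotype difference was itself held to the call limits, the GFP− difference alone passed in 382 positive and 89 negative genes and the GFP+ difference alone in 84 positive and 78 negative genes. Neither passed in 81 positive and 104 negative genes.

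**Figure D1:**
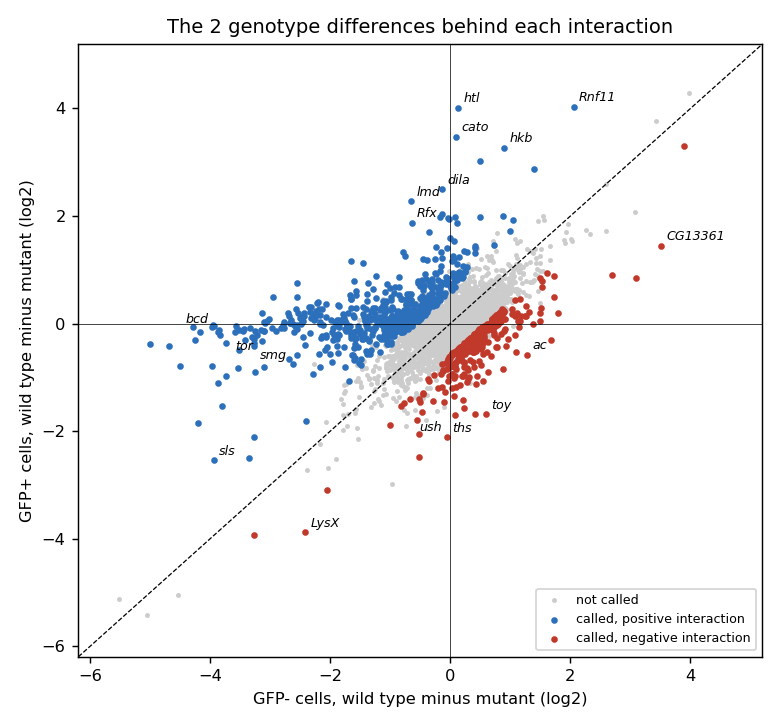
Genotype difference (wild type minus mutant, log2) of each gene in GFP+ cells (vertical axis) against GFP− cells (horizontal axis), with called positive interactions in blue, called negative ones in red and genes that were not called in grey; the dashed line marks equal differences, where the interaction is 0. The blue genes stretch mainly to the left, where levels were higher in mutant GFP− cells (bcd, tor, smg), and a smaller number lie upward, where levels were lower in mutant GFP+ cells (htl, cato, dila, Rfx).

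**Figure D2:**
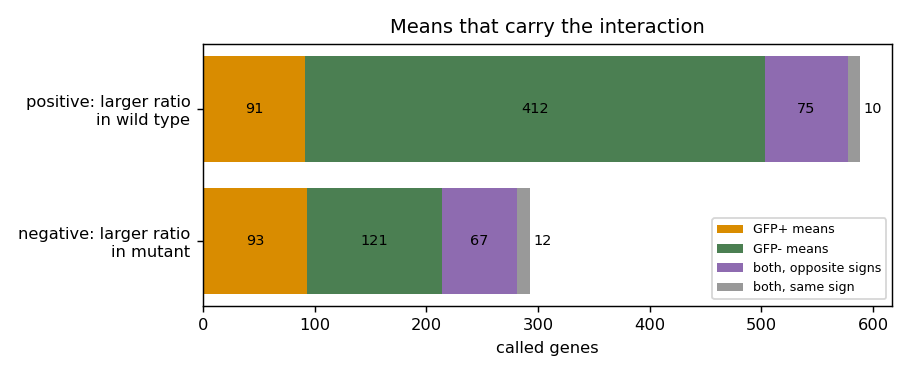
Number of called genes (horizontal axis) by the means that carry the interaction, for positive and for negative interactions. Of the positive genes 412 were carried by GFP− means and 91 by GFP+ means, and of the negative genes 121 and 93.

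The groups were well apart where the carrier rule placed the difference. The 412 positive genes carried by GFP− means had a median interaction of 1.29, and their median level was 8.16 in mutant GFP− cells, against 6.11 in wild-type GFP− cells. Their GFP+ medians were nearly equal at 5.72 in the mutant and 5.69 in wild type. The GFP− arrays of the genotypes did not overlap in 406 of these genes. The 91 positive genes carried by GFP+ means had a median interaction of 1.01 and median GFP+ levels of 7.09 in the mutant and 8.09 in wild type, without overlap of the GFP+ arrays in 90. Since the calls and the carrier rule used these levels, the levels and the counts without overlap describe the classes and do not test them. The share of all genes without overlap is not given.

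The positive genes carried by GFP+ means included the transcription factors and basal body genes that the study put forward as candidates downstream of ato. The study chose that list on these same arrays, so that its count is not independent evidence of direction: of 11 listed genes 9 were named by the platform table, CG41452 there as nrm and CG6129 as Root, and 8 of the 9 (88.9%) had a called positive interaction, all carried by GFP+ means. cato, a bHLH gene of the ato family expressed in sense organ precursors, was at 6.36, 6.68, 7.00 and 7.05 in mutant GFP+ cells, against 10.10, 10.36, 10.23 and 10.30 in wild-type GFP+ cells. GFP− cells lay between 5.96 and 6.05 in the mutant and between 5.97 and 6.20 in wild type. Every mutant GFP+ array was above every mutant GFP− array, yet more than 3 log2 units below the wild-type GFP+ arrays. The enrichment of cato in GFP+ cells was 1.73-fold in the mutant and 17.9-fold in wild type, an interaction of 3.38 (SE 0.22, adjusted p = 1.2e-12).

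dila, which encodes a basal body and ciliary protein, and Rfx, the winged-helix regulator of ciliary genes, followed the same course. dila was at 4.40, 4.71, 5.41 and 5.57 in mutant GFP+ cells, against 7.24, 7.47, 7.38 and 7.98 in wild-type GFP+ cells, with both GFP− groups between 3.76 and 4.33. Its GFP+ enrichment was 1.79-fold in the mutant and 11.1-fold in wild type (interaction 2.63, SE 0.37, adjusted p = 4.6e-06). Rfx was at 5.50, 5.59, 6.31 and 6.38 in mutant GFP+ cells, against 7.74, 7.93, 7.57 and 8.06 in wild-type GFP+ cells. In GFP− cells Rfx was higher in the mutant, at 4.96, 5.18, 5.27 and 5.16, than in wild type, at 4.26, 4.57, 4.44 and 4.73. These GFP− groups did not overlap (means 5.14 and 4.50), so that part of the Rfx interaction of 2.52 (SE 0.30, adjusted p = 2.8e-07) came from GFP− cells. In both genes the GFP+ groups did not overlap, and mutant GFP+ replicates 3 and 4 stood above replicates 1 and 2. This order of the mutant GFP+ arrays held also for the candidates cato, unc, ImpL3, fd3F, CG30427, nvy, Root and nrm, but not for CG9095.

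Rfx lies on chromosome arm 3R, and the study designed a gel retardation probe for binding of Ato from an E box, the CANNTG motif of bHLH factors, near this gene. The probe is shown because Rfx is the ciliary regulator with the largest interaction carried by GFP+ means, with the E box in capitals, at positions 17 to 22 counted from the 5′ end (CATGTG on the other strand). The arrays say nothing of binding at this site.
Rfx-EATO1: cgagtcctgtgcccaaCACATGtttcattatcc

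The other candidates differed in how much enrichment remained in the mutant. unc, whose product is found at basal bodies of sensory cilia, was at 5.30, 5.11, 5.59 and 6.01 in mutant GFP+ cells, against 7.83, 8.03, 7.76 and 7.64 in wild-type GFP+ cells (interaction 2.34, SE 0.24, adjusted p = 1.9e-08). ImpL3, the lactate dehydrogenase gene, was at 7.89, 7.87, 7.91 and 7.95 in mutant GFP+ cells, against 10.45, 10.77, 10.67 and 10.62 in wild-type GFP+ cells (interaction 2.45, SE 0.17, adjusted p = 6.7e-12). The probe sets of both genes are named only in the study's tables and stand outside the counts. The mutant GFP+ arrays of ImpL3 spanned less than 0.1 log2 units and its enrichment was 1.52-fold in the mutant and 8.31-fold in wild type. nrm, an immunoglobulin superfamily gene that the study's candidate list gives under the older name CG41452, was called on all 3 of its probe sets. On the one that the study listed the enrichment was 1.75-fold in the mutant and 3.72-fold in wild type (interaction 1.09, SE 0.18), and on the brightest, used in the counts, 2.77-fold and 7.71-fold (1.48, SE 0.24). CG30427 had an interaction of 0.78 (SE 0.13). nvy, the fly member of the MTG family of corepressors, kept a 1.98-fold enrichment in the mutant, against 4.37-fold in wild type (interaction 1.14, SE 0.20, adjusted p = 0.00011).

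The forkhead factor fd3F, a regulator of genes specific to chordotonal cilia, gave the least secure call of the set. It was at 4.60, 4.35, 5.24 and 5.31 in mutant GFP+ cells, against 5.85, 6.29, 6.53 and 7.21 in wild-type GFP+ cells, which did not overlap. Its interaction was 1.61 (SE 0.41, adjusted p = 0.0070) and missed the limit in 10 of the 16 fits that left out a single array (adjusted p up to 0.0226), while its other probe set was not called (0.20). Root, which encodes the rootletin of the ciliary rootlet, was enriched 1.79-fold in mutant and 4.08-fold in wild-type GFP+ cells and missed the limit (interaction 1.19, SE 0.34, adjusted p = 0.018). It was called when only the 16 arrays were fitted (adjusted p = 0.0045) and without mutant GFP+ replicate 4 (0.0096) or mutant GFP− replicate 1 (0.0097). Of CG9095 (interaction 1.48, SE 0.35) the call was lost without mutant GFP+ replicate 1 (adjusted p = 0.0129), wild-type GFP+ replicate 4 (0.0125) or wild-type GFP− replicate 3 (0.0113).

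**Figure D3:**
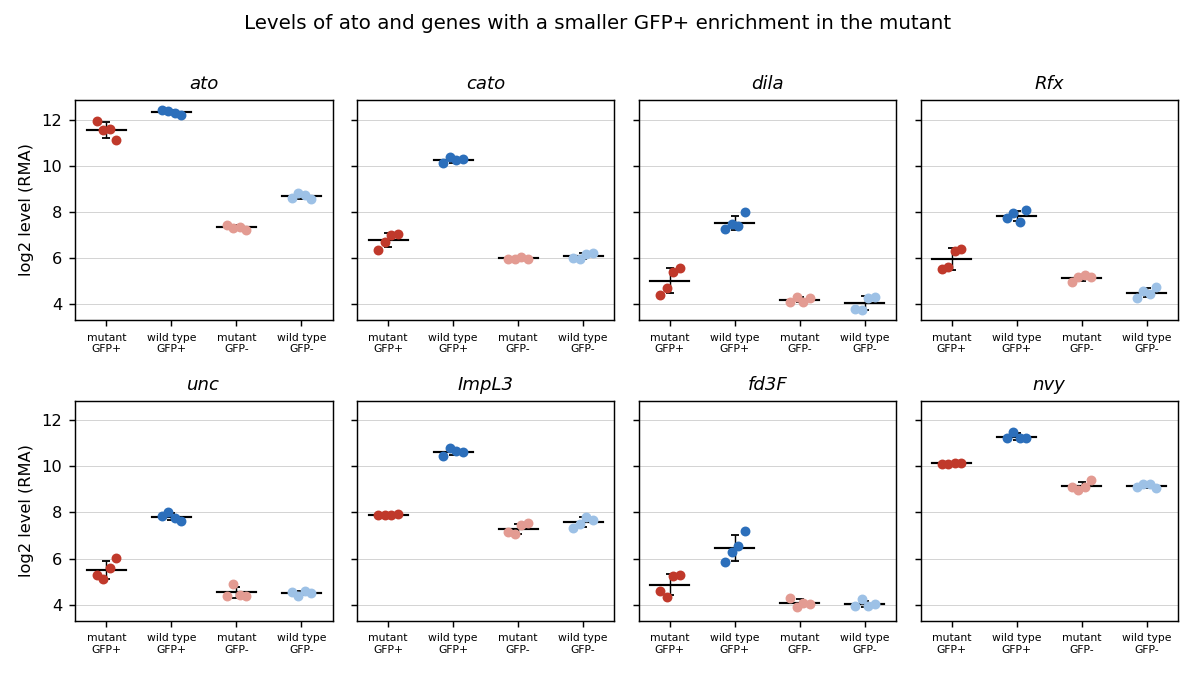
Log2 level (RMA, vertical axis) of ato and 7 genes with a smaller GFP+ enrichment in the mutant; each point is an array (4 per group), horizontal bars are group means and error bars are SD. ato differs between genotypes in GFP+ and GFP− cells alike, whereas cato, dila, Rfx, unc, ImpL3, fd3F and nvy differ mainly in GFP+ cells, lower in the mutant.

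Few genes of the ciliary machinery had a called interaction at this stage. None of 6 measured genes of the IFT-A complex, 10 of IFT-B and 6 of the BBSome, the protein complexes that carry cargo along cilia, had an interaction called by limma, and the list medians were −0.16, 0.044 and −0.10. At an unadjusted p under 0.05 there was 1 gene of IFT-A, with a negative value, and 0 of the other complexes. With 4.91% of all genes called positive and 2.45% negative, 0 of so few genes is near the share over all genes. The mean levels of IFT-B and the BBSome lay between 4.62 and 5.01 in the 4 groups, close to the array medians, and those of IFT-A between 6.57 and 7.34. Of 8 basal body, transition zone and rootlet genes only dila was called, beside unc, and of 16 axonemal dynein genes 1 was called, carried by GFP− means. A list of 19 measured regulators of sense organ precursors had 4 positive calls in limma (21.1%, against 4.91% of all genes) and 0 negative ones (against 2.45%), with 10 and 1 at an unadjusted p under 0.05 and a median of 0.48. They were nvy, which is also one of the study's candidates, spdo, cpo and wor. The calls of cpo and wor were lost in 6 and 12 of the 16 fits that left out an array. Other probe sets of cpo were not called (1.04 and 0.0060). The mean of wor was lower in GFP+ than in GFP− cells of both genotypes, at 8.39 against 9.82 in the mutant and 9.79 against 10.23 in wild type. spdo, a membrane protein of Notch signalling in dividing precursors, was at 10.25, 10.24, 10.48 and 10.43 in mutant GFP+ cells, against 11.70, 11.92, 11.82 and 11.70 in wild-type GFP+ cells (interaction 1.03, SE 0.21, adjusted p = 0.00098). ss, a bHLH-PAS factor of antennal fate, kept a large part of its enrichment, at 8.55-fold in mutant and 23.4-fold in wild-type GFP+ cells (interaction 1.45, SE 0.28).

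In the EGF receptor pathway, by which chordotonal precursors recruit neighbouring cells, a few genes were called, in both directions. The ligand gene vn was at 7.36, 7.38, 8.35 and 8.25 in mutant GFP+ cells, against 8.99, 9.54, 9.20 and 9.34 in wild-type GFP+ cells, an interaction of 1.80 (SE 0.27, adjusted p = 1.1e-05). rho, the protease that releases the main ligand, had an interaction of 1.18 (SE 0.21), and aos, a secreted inhibitor and target of the pathway, one of 0.81 (SE 0.14). vn was not enriched in mutant GFP+ cells (0.783-fold) and was enriched 2.73-fold in wild type. The probe sets of vn and rho are again named only in the study's tables. Of the 12 pathway genes counted 1 was called positive (8.33%, against 4.91% of all genes) and 2 negative (16.7%, against 2.45%), with a median of −0.070: aos was the positive call, and the receptor gene Egfr (−0.64) and Sos (−0.61), which activates Ras, were the negative ones. Both lost the call with cyclic loess scaling (−0.49 and −0.47) and without wild-type GFP+ replicate 3 (−0.58 each). Egfr also lost it without wild-type GFP− replicate 4, and Sos without mutant GFP+ replicate 3 or mutant GFP− replicate 2.

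The largest interaction carried by GFP+ means was that of a mesodermal gene. htl, the FGF receptor of the mesoderm, was at 4.98, 4.26, 5.06 and 4.38 in mutant GFP+ cells, against 8.65, 8.73, 8.66 and 8.71 in wild-type GFP+ cells. In GFP− cells it stood at 10.00, 9.95, 9.98 and 10.05 in the mutant and at 10.30, 10.06, 10.15 and 10.01 in wild type, where the groups overlapped. htl was therefore depleted from GFP+ cells 40.1-fold in the mutant and 2.72-fold in wild type (interaction 3.88, SE 0.20, adjusted p = 1.9e-14). A positive interaction of this kind is a stronger depletion in the mutant and not an enrichment in wild type.

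Some other mesodermal and endodermal genes shared the pattern of htl. lmd, a regulator of myoblast fate, was at 5.01, 4.70, 4.22 and 4.82 in mutant GFP+ cells, against 6.53, 6.95, 7.32 and 7.06 in wild-type GFP+ cells (interaction 2.93, SE 0.33, adjusted p = 7.2e-08). meso18E was depleted 45.8-fold in mutant and 12.3-fold in wild-type GFP+ cells (interaction 1.89, SE 0.25). hkb, a gap gene of the endoderm, was at 5.37, 4.19, 4.74 and 4.08 in mutant GFP+ cells, against 7.47, 7.72, 8.53 and 7.73 in wild-type GFP+ cells (interaction 2.37, SE 0.33, adjusted p = 3.3e-06). In all of these the GFP+ groups did not overlap, and the wild-type GFP+ arrays lay between the mutant GFP+ and the GFP− arrays.

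As lists, 4 of 11 measured mesoderm and muscle genes (36.4%, median 0.65) and 5 of 9 endoderm and gut genes (55.6%, median 0.84) had positive calls, against 4.91% of all genes. In neither list did limma call a negative interaction, nor was there any at an unadjusted p under 0.05. The genotype difference in GFP+ cells passed in 7 of the 11 mesodermal and 6 of the 9 endodermal genes, lower in the mutant each time, against 2.94% of all genes in that direction. The mean level of the mesodermal list was 5.47 in mutant GFP+ cells (5.37 to 5.71 over the arrays), against 6.64 in wild-type GFP+ cells (6.36 to 6.86), and 8.63 in mutant GFP− cells, against 8.73 in wild-type GFP− cells. The endodermal list stood at 6.41 in mutant GFP+ cells (6.29 to 6.53), against 7.48 in wild-type GFP+ cells (7.29 to 7.67). The remaining endodermal calls were grn and fkh, in which both means moved in opposite directions, dve, carried by GFP+ means, and cad, carried by GFP− means. grn and dve did not share the pattern of htl, since wild-type GFP+ cells were above wild-type GFP− cells. The means were 9.84 against 8.74 for grn and 8.39 against 7.23 for dve, whose other probe set was not called (0.11). cad had nearly equal GFP+ means, 7.44 in the mutant and 7.38 in wild type. The fourth mesodermal call, kirre (0.88), was carried by GFP− means too and missed the limit when only the 16 arrays were fitted (adjusted p = 0.0102). In bulk samples fewer cells of a type and less RNA per cell cannot be told apart. What part cells of these germ layers had in the positive interactions was not tested.

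The largest positive interactions were carried by GFP− means. Of the 15 genes with the largest positive values 14 were of this class, with htl the exception. CG5568 led with 4.63 (SE 0.26): it was at 9.60, 9.96, 9.72 and 8.76 in mutant GFP− cells, against 5.05, 4.23, 4.14 and 4.58 in wild-type GFP− cells, and its GFP+ arrays lay between 3.47 and 4.47. It was followed by mol at 4.26 (SE 0.29) and ZnT49B at 4.22. Among the named genes of this class were many that are known as maternal transcripts, loaded into the egg and cleared in the early embryo.

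bcd, whose maternal RNA is localised to the anterior pole and patterns the head, was at 8.42, 8.67, 8.68 and 7.29 in mutant GFP− cells, against 4.23, 3.98, 4.00 and 4.13 in wild-type GFP− cells. GFP+ cells were at the bottom of the scale in both genotypes, at 3.48 to 3.69 in the mutant and 3.24 to 3.55 in wild type. The interaction was 4.02 (SE 0.24, adjusted p = 1.8e-13), and another probe set of bcd was not called (0.53). tor, the receptor of the embryonic termini, was at 8.01, 7.99, 7.85 and 6.98 in mutant GFP− cells, against 4.52, 3.86, 4.10 and 4.01 in wild-type GFP− cells (interaction 3.42, SE 0.23, adjusted p = 2.0e-12). smg, which encodes a repressor and destabiliser of maternal RNAs, was at 12.43, 12.61, 12.37 and 11.63 in mutant GFP− cells, against 9.05, 8.92, 8.74 and 9.26 in wild-type GFP− cells (interaction 2.91, SE 0.20). Mutant GFP− replicate 4 was the lowest of its group in all 3 genes, and still above every wild-type GFP− array.

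A list of maternal egg and early embryo transcripts was written after these values had been seen, and its counts are only a description. Of 42 measured members 19 (45.2%) had a positive call and 1 a negative one, against 4.91% and 2.45% of all genes, and the median was 0.57. They included krimp (3.33), AGO3 (2.84) and spn-E (2.40), genes of the piRNA pathway of the germ line, twe (2.82), a meiotic Cdc25 phosphatase, and the axis determinants osk (1.44) and grk (1.29). All were carried by GFP− means except mael (1.16), another piRNA gene, which was carried by GFP+ means. pum, a translational repressor, was called in both directions on different probe sets (−0.66 and 0.76). The genotype difference in GFP− cells passed in 19 members, higher in the mutant, against 6.36% of all genes in that direction. The mean level of the list was 7.75 in mutant GFP− cells (7.45 to 7.90), against 6.57 in wild-type GFP− cells (6.50 to 6.60), and 6.32 and 6.34 in mutant and wild-type GFP+ cells. Without these members 569 positive and 292 negative genes remained. A germ line list that was not added afterwards followed much less. Of its 7 measured genes 1 (14.3%, against 4.91% of all genes) was called positive and 0 negative, with a median of 0.038. Its mean level was 7.29 in mutant GFP− cells, against 7.10 in wild-type GFP− cells. The part of maternal RNA in the other calls was not tested.

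**Figure D4:**
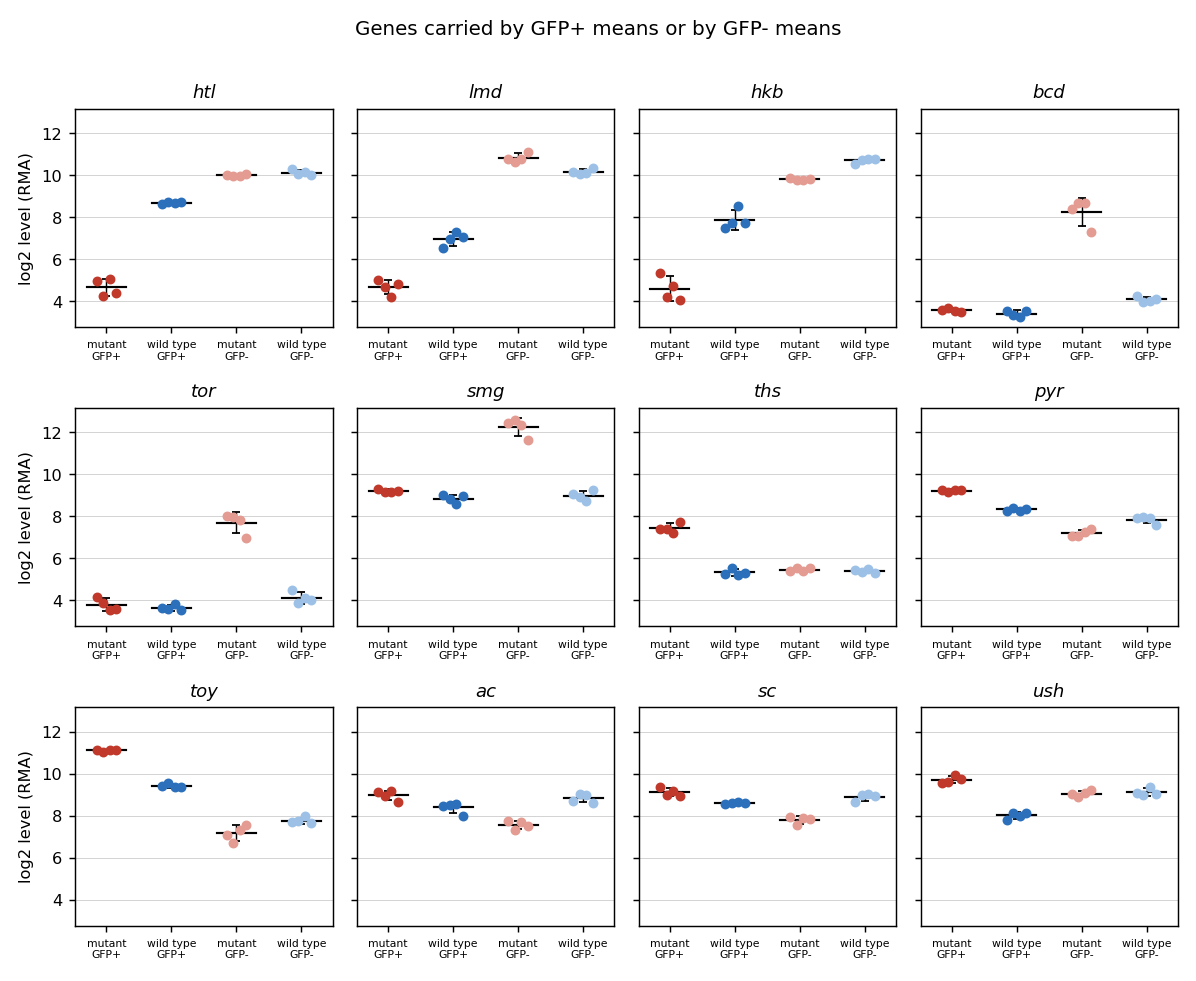
Log2 level (RMA, vertical axis) of 12 genes with a called interaction; each point is an array (4 per group), horizontal bars are group means and error bars are SD. In htl, lmd and hkb the mutant GFP+ arrays are the low ones, in bcd, tor and smg the mutant GFP− arrays are the high ones, in ths, toy and ush the mutant GFP+ arrays are the high ones, and in pyr, ac and sc GFP+ and GFP− cells differ in opposite directions.

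Among genes named by the platform table, the largest negative interactions carried by GFP+ means were those of toy, Tsp and ths, a ligand of htl. toy, a Pax6 gene of eye and brain development, was at 11.12, 11.04, 11.13 and 11.11 in mutant GFP+ cells, against 9.41, 9.53, 9.37 and 9.36 in wild-type GFP+ cells (interaction −2.28, SE 0.18, adjusted p = 5.6e-11). Its other probe sets disagreed, with −0.23 and no call on the second and 1.07 and a positive call on the third. Tsp, the thrombospondin gene, was at 8.84, 8.93, 9.72 and 9.76 in mutant GFP+ cells, against 7.02, 7.51, 7.72 and 8.28 in wild-type GFP+ cells (interaction −2.08, SE 0.32, adjusted p = 1.6e-05), and its other probe set was not called (−0.55). ths was at 7.42, 7.42, 7.20 and 7.75 in mutant GFP+ cells, against 5.24, 5.54, 5.21 and 5.33 in wild-type GFP+ cells, and all GFP− arrays lay between 5.32 and 5.55. ths was thus enriched 3.94-fold in mutant GFP+ cells and not in wild type, where the ratio was 0.947-fold (interaction −2.06, SE 0.14, adjusted p = 2.5e-12).

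The FGF ligand genes ths, pyr and bnl all had negative interactions, opposite in sign to that of htl. pyr, the other ligand of htl, was at 9.24, 9.16, 9.26 and 9.27 in mutant GFP+ cells, against 8.27, 8.42, 8.26 and 8.38 in wild-type GFP+ cells. In GFP− cells pyr was at 7.09, 7.07, 7.26 and 7.42 in the mutant, against 7.91, 7.96, 7.92 and 7.59 in wild type, and the interaction of −1.54 (SE 0.15) drew on both. bnl, the ligand of the tracheal FGF receptor, had an interaction of −0.92 (SE 0.12, adjusted p = 2.2e-06), again with opposite moves in GFP+ and GFP− cells. The tracheal receptor gene btl was not called (0.30). This list of 5 measured FGF genes was likewise written after values had been seen.

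Of 11 epidermal genes counted 5 were called higher in mutant than in wild-type GFP+ cells, against 3.71% of all genes in that direction. pnr, a GATA factor of the dorsal ectoderm, was lower in mutant GFP+ cells (wild type minus mutant 0.69), and its interaction was not called (−0.18). ush, a cofactor of GATA factors in the dorsal ectoderm and in haemocytes, was at 9.56, 9.60, 9.92 and 9.74 in mutant GFP+ cells, against 7.79, 8.11, 8.001 and 8.12 in wild-type GFP+ cells (interaction −1.78, SE 0.13, adjusted p = 9.2e-12). It was enriched 1.58-fold in mutant and depleted 2.17-fold in wild-type GFP+ cells. Of the 11 genes 5 (45.5%, against 2.45% of all genes) had a negative interaction call in limma and 8 a negative value at an unadjusted p under 0.05, and all 11 lay below 0 (median −0.47). rho, a member outside the count because only the study's tables name it, had the positive value given above. dpp, the BMP ligand, had an interaction of −0.74 (SE 0.14) and grh, the regulator of epidermal barrier genes, one of −0.70 (SE 0.11). tsh (−0.65) and ovo (−0.63) fell under 1.5-fold with cyclic loess scaling (−0.56 and −0.52), and the call of ovo was lost in 11 of the 16 fits without a single array. The mean level of the epidermal list was 9.50 in mutant GFP+ cells (9.40 to 9.60), against 8.99 in wild-type GFP+ cells (8.91 to 9.07), and 8.98 and 9.02 in mutant and wild-type GFP− cells.

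Of the other proneural genes 4 had called negative interactions, which were carried by GFP− means. ac, a proneural gene of external sense organs, was at 9.12, 8.95, 9.15 and 8.65 in mutant GFP+ cells, against 8.45, 8.52, 8.57 and 8.003 in wild-type GFP+ cells. In GFP− cells the order turned, with 7.74, 7.30, 7.70 and 7.52 in the mutant, against 8.71, 9.01, 8.999 and 8.62 in wild type. The interaction of ac was −1.85 (SE 0.22, adjusted p = 1.7e-07), and neither fraction overlapped between genotypes. sc, its neighbour and partner in the same complex, was at 9.38, 8.97, 9.15 and 8.95 in mutant GFP+ cells, against 8.53, 8.61, 8.62 and 8.60 in wild-type GFP+ cells, and at 7.93, 7.53, 7.91 and 7.84 in mutant GFP− cells, against 8.63, 8.96, 9.02 and 8.95 in wild-type GFP− cells (interaction −1.61, SE 0.21, adjusted p = 1.2e-06).

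l(1)sc, the proneural gene of the central nervous system, and amos, the bHLH relative of ato in olfactory and multiple-dendritic neurons, gave −1.21 each (SE 0.18 and 0.21). In both the GFP+ arrays of the genotypes overlapped and the GFP− arrays did not. amos was at 5.78, 5.53, 5.65 and 5.41 in mutant GFP− cells, against 7.05, 7.25, 7.34 and 6.73 in wild-type GFP− cells. Of the 8 genes of the proneural list, cato was thus the only positive call and these 4 were the negative ones (12.5% and 50%, against 4.91% and 2.45% of all genes). tap (0.58), ase (0.15) and ato were not called. The GFP− genotype difference passed in 5 members, lower in the mutant each time, against 4.5% of all genes in that direction, ato being the fifth.

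Segment polarity genes likewise had negative calls, in 5 of 11 counted members (45.5%, against 2.45% of all genes, median −0.61, 9 at an unadjusted p under 0.05), and all 11 values lay below 0. The called genes were odd (−1.25), hh (−1.03), slp2 (−0.98), en (−0.68) and inv (−0.61), of which inv lost its call in 13 of the 16 fits without a single array and with cyclic loess scaling (−0.47). hh, which encodes the Hedgehog ligand, was at 8.07, 7.99, 8.15 and 7.94 in mutant GFP− cells, against 8.78, 8.81, 8.76 and 8.89 in wild-type GFP− cells, and was enriched in GFP+ cells of both genotypes, 7.44-fold in the mutant and 3.64-fold in wild type. wg, the Wnt ligand, whose probe set is named only in the study's tables, was instead carried by GFP+ means, at 11.44, 11.32, 11.50 and 11.62 in mutant GFP+ cells, against 10.69, 10.70, 10.61 and 10.92 in wild-type GFP+ cells (−0.74, SE 0.14). Other lists also had large shares of negative calls. Among 10 tracheal genes 5 were called negative (50%) and 2 positive (20%). Among 12 genes of brain and optic progenitors 4 were called negative (33.3%) and 0 positive, against 2.45% and 4.91% of all genes.

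Genes of the larval eye and retinal determination went both ways, with 2 positive and 4 negative calls among 15 (13.3% and 26.7%, against 4.91% and 2.45% of all genes), toy counting once in each direction on different probe sets. so (0.85), a homeobox factor of eye development, and the third probe set of toy were positive, and the cofactor of so, eya (−1.21), the zinc finger gene salm (−0.75), hh and the brightest probe set of toy were negative. so missed the limit when only the 16 arrays were fitted (adjusted p = 0.012). Among 10 glial genes, 13 genes of the E(spl) and Bearded complexes and 4 Hox genes limma called none, against 4.91% of all genes positive and 2.45% negative. At an unadjusted p under 0.05 there were 4 positive and 3 negative glial genes, 2 negative genes of the complexes and 1 negative Hox gene. Over all 11982 genes there were 1371 positive and 2015 negative. In GFP+ cells 4 glial genes were called lower in the mutant, against 2.94% of all genes. Of 12 markers of haemocytes and fat body ush alone was called, with a negative value (8.33%, against 2.45% of all genes).

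**Figure D5:**
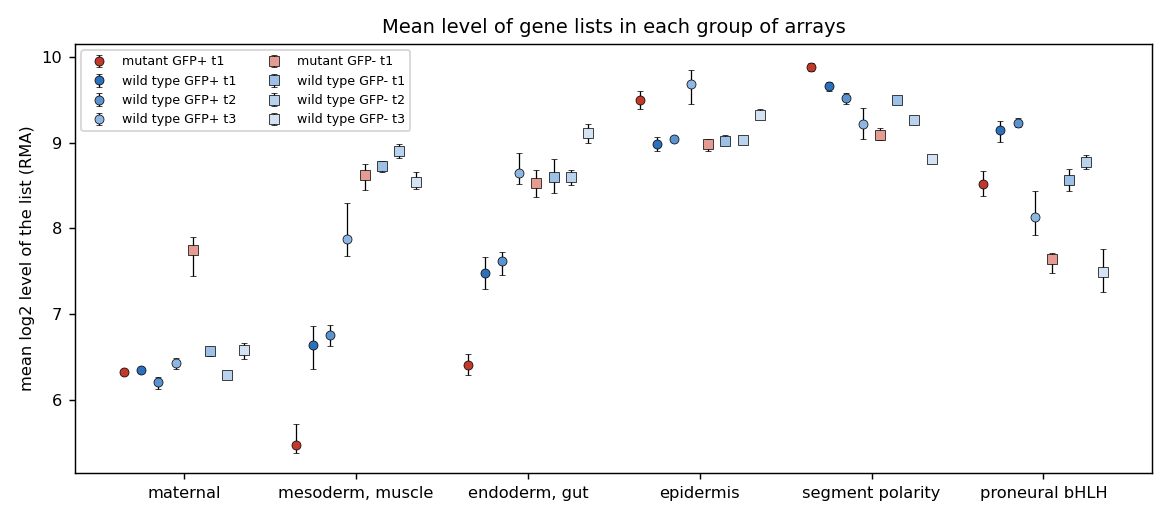
Mean log2 level (RMA, vertical axis) of 6 gene lists in each of the 8 groups of arrays; circles are GFP+ and squares GFP− groups, and bars run from the lowest to the highest array. The maternal list is high in mutant GFP− cells (7.75), and the mesodermal and endodermal lists are low in mutant GFP+ cells (5.47 and 6.41). The mean of the proneural list is lower in mutant than in wild-type cells of both fractions, although its members ac and sc are higher in mutant GFP+ cells.

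A smaller set of called genes differed between genotypes in both fractions. Rnf11 was at 6.81, 6.93, 6.78 and 6.71 in mutant GFP+ cells, against 10.56, 10.87, 10.83 and 11.12 in wild-type GFP+ cells, and was also lower in mutant GFP− cells by a smaller amount (interaction 1.98, SE 0.16). LysX, a lysozyme gene, was higher in the mutant in both fractions, at 7.68, 7.94, 8.08 and 8.26 in mutant GFP+ cells, against 4.21, 4.15, 4.23 and 3.85 in wild-type GFP+ cells (interaction −1.46, SE 0.17). sls, which encodes a titin-like muscle protein, was also higher in the mutant in both fractions (wild type minus mutant −2.54 in GFP+ and −3.94 in GFP− cells), with an interaction of 1.40 (SE 0.23). In each of these genes the interaction was smaller than the genotype difference in either fraction.

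In other genes the fractions moved apart. Ald1, a glycolytic aldolase gene, was at 5.15, 5.28, 4.85 and 4.79 in mutant GFP+ cells, against 6.08, 6.36, 6.04 and 6.25 in wild-type GFP+ cells, and at 9.90, 9.95, 9.89 and 9.02 in mutant GFP− cells, against 8.15, 8.19, 8.07 and 7.70 in wild-type GFP− cells. Neither fraction overlapped, and the interaction was 2.82 (SE 0.26, adjusted p = 2.0e-09), with no call on its other probe set (0.041). Idgf4, a secreted growth factor of the chitinase family, was of the same kind (2.59, SE 0.30). Among negative genes carried by GFP− means, CG13361 and CG12885 instead had lower means in the mutant in both fractions. CG13361 was at 5.17, 5.34, 5.59 and 5.34 in mutant GFP− cells, against 8.79, 8.90, 8.93 and 8.85 in wild-type GFP− cells (interaction −2.06, SE 0.23). Its genotype difference, wild type minus mutant, was 1.44 in GFP+ and 3.51 in GFP− cells. That of CG12885 was 0.84 in GFP+ cells, where the arrays overlapped, and 3.09 in GFP− cells. CG12885 had an interaction of −2.25 (SE 0.31), with no call on its other probe set.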

How the data were processed

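Affymetrix Drosophila 2.0 arrays were hybridised with RNA of sorted cells. The authors normalised them by RMA with quantile normalisation and deposited 1 log2 value per probe set and array. The labels describe 1 cycle of target labelling and the methods 2. Of 18769 probe sets other than controls, 13647 named 1 gene in the platform table, 402 several and 4720 none, and 14 were named only by the study's tables.

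A mean per group was fitted to all 31 arrays with limma 3.58.1 (R 4.3.3), without a replicate block (23 residual degrees of freedom), with moderated tests and Benjamini-Hochberg adjustment over all these probe sets. A probe set was called at 1.5-fold and an adjusted p of 0.01, and a gene when a probe set naming it alone was called. A gene's values are those of its brightest such probe set. The fit was tested on simulated data. The text names ato, genes with the largest interactions, the study's candidates and called list members; w, tap, ase, pnr and btl were added after their values were seen. Alternatives covered the fit, scaling, filter, limits and left-out arrays, and the count without maternal transcripts was added after seeing the data. For GFP− replicate 4 at t2 the labels give different GFP classes, and the title was followed. The members and lists were chosen with earlier results of these data known.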

Additional observations from a re-analysis of the deposited data

Results flagged for a closer look

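The GFP+/GFP− ratio differed between genotypes in 588 genes with a positive and 293 with a negative interaction, by the test of the difference of differences.

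A single array stood apart from the other 3 of its group in 13 of the 324 groups checked over the named genes, where chance alone gives about 1 in 20. Mutant GFP− replicate 4 was the stray array in 4 of them: it was low for tor (6.98, against 7.85 at the nearest) and Ald1 (9.02, against 9.89), and high for grn (9.97, against 9.67) and bnl (9.08, against 9.01). Mutant GFP− replicate 3 was high for cato (6.05) and replicate 2 for unc (4.89), and mutant GFP+ replicate 2 was low for kni (11.1). Wild-type GFP+ replicate 1 was low for ase (10.5), replicate 2 was high for nvy (11.5) and replicate 4 for ss (10.2) and so (8.27). Wild-type GFP− replicate 1 was low for hkb (10.5) and replicate 4 for pyr (7.59).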

How the results depend on the processing

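On its brightest probe set no named gene turned a called direction under any alternative run, whereas toy and pum were called in both directions on different probe sets. Of 80 named genes 14 changed sides of the call limits under a setting other than the 2-fold limit and the test against 1.5-fold: Root, kirre, so, Egfr, Sos, pum, tsh, ovo, inv, fd3F, wor, cpo, cad and CG9095. With cyclic loess scaling the interaction gave 150 negative calls, all shared with the 293, beside 733 positive ones (83.0% positive, against 66.7%), the GFP− genotype difference 347 positive calls, and negative genes carried by GFP− means, by both and by GFP+ means numbered 50, 35 and 65. Centring on ribosomal protein genes gave 513 positive and 339 negative calls (60.2% positive) and 1159 genes enriched in the mutant; neither scaling moved the median interaction by over 0.1. At 2-fold there were 355 positive and 76 negative interactions, carried by GFP+ means in 48 and 36, by GFP− means in 270 and 26 and by both in 37 and 14. That limit left 249 enriched and 586 depleted genes in the mutant, 120 and 264 in wild type, positive and negative genotype differences in 114 and 155 genes of GFP+ cells and 126 and 394 of GFP− cells. Tested against a 1.5-fold change, 224 positive and 30 negative interactions remained, with 234 enriched and 561 depleted genes in the mutant, 104 and 216 in wild type, and positive and negative genotype differences in 78 and 108 genes of GFP+ cells and 103 and 355 of GFP− cells. With a carrier ratio of 1.5 the genes carried by both numbered 43 positive and 47 negative, and with 3 they numbered 154 and 121.

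Leaving out single arrays gave 529 to 641 positive and 212 to 357 negative interactions. The lowest negative count came without mutant GFP− replicate 2 and the highest without mutant GFP− replicate 4. The interaction of ato ranged from −0.72 to −0.45.

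Replicate numbers are shared by GFP+ and GFP− arrays. The deviations of same-numbered arrays correlated at 0.213 to 0.299 in the mutant and at 0.068 to 0.327 in wild type, 2 wild-type pairs falling under 0.1, though each GFP+ array matched best with its own number. The methods collected GFP+ and GFP− cells in each sorting run but do not tie array numbers to runs, and the pairing was taken as not established. Fitting only the 16 arrays gave 595 positive and 307 negative interactions, 736 enriched and 1010 depleted genes in the mutant and 304 and 583 in wild type; Root was then called (adjusted p = 0.0045) and kirre and so were not. With the replicate block added to that fit there were 651 and 366 interactions, 755 and 1016 genes in the mutant and 321 and 605 in wild type; Root stayed called (0.00018), and kirre and so were called. The interaction of ato had an adjusted p of 0.0049 with the block and stayed just under 1.5-fold (−0.58). No block could be fitted between genotypes.

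Signal over background was not given for any probe set, which limits what the fold changes of low genes such as dila, fd3F and bcd can show.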

Other observations

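Some genes differed strongly between genotypes in both fractions by nearly equal amounts, and so had no called interaction. Hsc70-2 was higher in the mutant, at 9.41 ± 0.070 in GFP+ cells (SD, n = 4), against 3.99 ± 0.064 in wild-type GFP+ cells, and at 9.05 ± 0.19 in mutant GFP− cells, against 4.00 ± 0.14 in wild-type GFP− cells. CG6040 (9.08 in mutant GFP+ cells, against 3.96 in wild type) and Zip102B (9.91 in mutant GFP+ cells, against 4.86 in wild type) were of the same kind. mthl8 was lower in the mutant, at 4.08 in mutant GFP+ cells, against 8.37 in wild-type GFP+ cells, and at 4.00 in mutant GFP− cells, against 7.98 in wild-type GFP− cells. These genes were chosen after their values were seen.

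w, the white eye colour gene, was also chosen after its values were seen, and its probe set is named only in the study's tables. It was at 9.12, 8.96, 9.17 and 8.97 in mutant GFP+ cells, against 6.62, 6.51, 6.81 and 6.38 in wild-type GFP+ cells, with both GFP− groups between 4.66 and 5.24. The interaction was −2.53 (SE 0.18, adjusted p = 9.8e-12). All embryos were of the background labelled w118 and carried the atoGFP.7 transgene, and the source of this signal was not tested.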
